A study of Mus musculus with 10 samples.

Results

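Voltage-gated sodium and calcium channel subunits were taken from the footprint count table as the rows whose mouse symbol begins with Scn and a digit, or with Cacna, Cacnb or Cacng. This rule reads names only and uses no measured value. It found 40 of the 22373 genes in the table, of which 14 are sodium channel and 26 are calcium channel genes. They were divided by role into 20 pore-forming and 20 auxiliary subunits, which are the classes compared here.

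Ribosome profiling (Ribo-seq) counted the mRNA fragments that ribosomes protect from nuclease, called RPFs or footprints, in the neocortex of wild-type CD-1 mice at 5 stages from E12.5 through E14, E15.5 and E17 to P0, the day of birth, with 2 libraries at each stage. Brains of both sexes were pooled for every library, so the spread between replicates is that between pools and not between single animals. The labels give no genotype, drug or other treatment that separates the groups, only age, and the lysates of all of them were prepared without cycloheximide. Footprints count ribosomes on an mRNA, so that a change in mRNA amount and a change in ribosomes per mRNA are not separated by these values, and mRNA levels were not analysed here.

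A voltage-gated sodium or calcium channel is built around a single large pore-forming alpha subunit, which senses membrane voltage and lets the ion through. Auxiliary subunits do not conduct by themselves and mostly set how many channels reach the surface and how they gate: beta subunits of the sodium channel are also adhesion molecules, while calcium channels carry a cytoplasmic beta subunit and an extracellular alpha2delta subunit. Several gamma subunits, named after a calcium channel subunit of muscle, act in neurons chiefly as transmembrane AMPA receptor regulatory proteins (TARPs). Young neurons acquire these channels as they become excitable.

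Library totals ran from 7544404 counts at P0 replicate 1 to 36129988 counts at E14 replicate 2, and the members together took between 2760 and 13138 counts of a library. Levels are CPM, the depth-scaled count of a gene, on library sizes scaled by TMM, a factor that centres most genes on no change between libraries. A level of 3 counts, the upper limit that a count of 0 allows, corresponds to 0.326 CPM in P0 replicate 1 and to between 0.0716 and 0.165 CPM in the other libraries, and this covers counting error only. The P0 libraries stood apart from each other, with an SD of 0.53 for the log2 ratio of replicates over well-counted genes against 0.13 to 0.22 at the embryonic stages. Footprints were not divided by coding length, so that levels are compared between stages for a gene or a fixed sum of genes, never between genes.

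Of the 40 members, 30 had at least 32 footprints over the 2 libraries of some stage and were tested, 14 pore-forming and 16 auxiliary. The 10 that were not tested were the pore-forming Cacna1f, Cacna1i, Cacna1s, Scn4a, Scn7a and Scn11a and the auxiliary Cacna2d4, Cacng1, Cacng6 and Scn4b. Several of these are known from other tissues, such as Cacna1s and Scn4a from skeletal muscle, Cacna1f and Cacna2d4 from retina, and Scn11a from sensory neurons. Scn7a gave 1 count in 10 libraries. Cacna1i, a T-type pore, averaged 0.130 CPM at E12.5 and 0.546 CPM at P0. Cacng6 gave 12 counts in all at E14, 2 at E15.5 and 20 at P0, 19 of them in replicate 2. Stage means of the others lay between 0 and 0.0835 CPM for Cacna1f, 0.0855 and 0.198 for Cacna1s, 0.0119 and 0.0346 for Scn4a, 0 and 0.12 for Scn11a, 0 and 0.0477 for Cacna2d4, 0.0187 and 0.0852 for Cacng1, and 0 and 0.222 for Scn4b. A filter of this kind keeps a gene for being high at some stage, so the shares below describe the members that passed and not all 40.

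From E12.5 to P0, most tested members gained footprints. In a limma-voom fit to all tested genes, with a call where the adjusted p was below 0.05 and the level changed by 25% or more, 19 of the 30 members were called higher and 2 lower, while 30.1% of all 13484 tested genes were called higher and 32% lower. The median log2 fold change of the members was 1.59, and that of all tested genes was -0.01. Among pore-forming subunits 9 of 14 were called higher and 1 lower, with a median of 1.65. Among auxiliary subunits 10 of 16 were called higher and 1 lower, with a median of 1.49. The classes therefore differed by 1 higher call, and their medians by less than the spread of values within either of them, and the difference between them was not tested. An F test across the 5 stages called 26 of 30 members, 12 pore-forming and 14 auxiliary, where 63.8% of all tested genes were called.

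**Figure D1:**
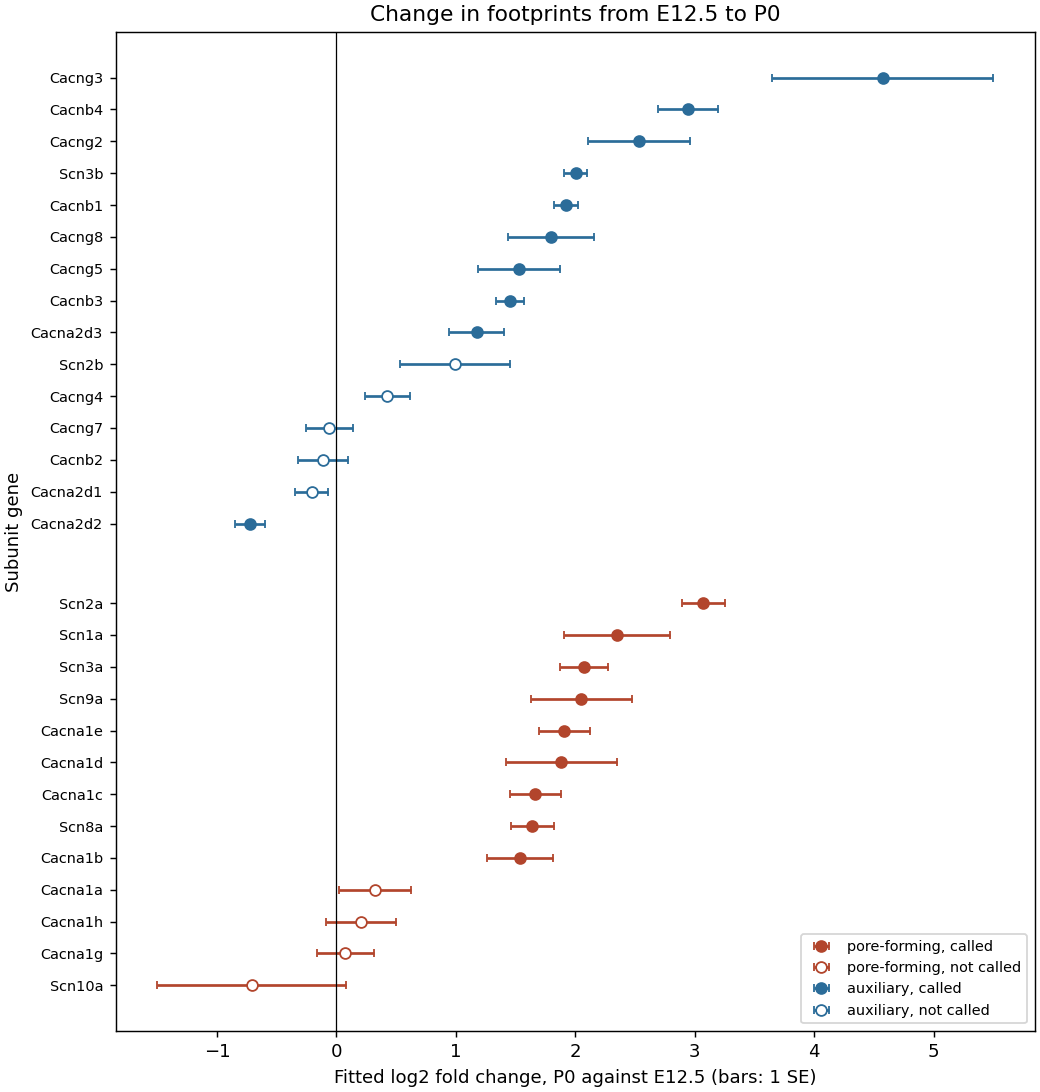
Fitted log2 fold change from E12.5 to P0 (horizontal axis, bars 1 SE) for 28 of the 30 tested subunits (vertical axis), with filled points for called members, red for pore-forming and blue for auxiliary. Most members of both classes lie to the right of 0, Cacna2d2 is called on the left, and the widest bar is that of Cacng3.

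Of these 21 calls, 18 held in every alternative in which the gene was tested. Of the other three, Cacna1d lost its call without E12.5 replicate 2 (log2 1.56, adjusted p 0.0802) and Cacna2d2 when libraries were scaled by total counts only (-0.20, adjusted p 0.205). Scaling by total counts only moved the median of all genes to 0.51 and put 72% of all calls on the higher side instead of 48.5%, and relative to that median the pore-forming and auxiliary medians were 1.67 and 1.5.

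Sodium channel alpha subunits include Scn1a, Scn2a, Scn3a and Scn8a, known from brain, and Scn9a, Scn10a and Scn11a, better known from sensory neurons. Scn2a (ENSMUSG00000075318), the early axonal sodium channel of cortical neurons, had 1.21 and 1.05 CPM (E12.5), 1.41 and 1.3 (E14), 4.10 and 4.77 (E15.5), 9.37 and 9.27 (E17) and 9.68 and 9.38 (P0). The first 2 stages lay together at the low end, E15.5 lay between, and the E17 and P0 libraries overlapped nowhere with any earlier stage. The log2 fold change was 3.07 ± 0.18 (SE, n = 2 and 2) from E12.5 to P0, with an adjusted p of 3.02e-06, and included called steps of 1.69 ± 0.16 between E14 and E15.5 and 1.08 ± 0.12 at the step to E17.

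Scn1a, the sodium channel best known from fast-spiking interneurons, averaged 0.492 CPM at E12.5 and 3.21 CPM at P0 (log2 2.35 ± 0.44), and its value without P0 replicate 2 was 3.04. Scn3a, a channel of fetal brain, rose from 0.898 to 3.95 CPM (2.07 ± 0.20). Its stage mean was highest at E17, at 4.49 CPM. Scn9a went from 0.417 to 2.09 CPM (2.05 ± 0.42), and Scn8a, the channel of mature axon initial segments and nodes, from 2.24 to 6.83 CPM (1.64 ± 0.18). In all 4 genes both P0 libraries were above both E12.5 libraries. The same order was found in 22 of the tested members, while 5 had both P0 libraries below and 3 overlapped. The share of all tested genes in either order was not computed, so these counts cannot set the members apart from other genes. The fit used these same libraries, so the order is no separate support for the calls.

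Scn2a and Scn8a did not keep step. Scn2a made up between 29.6% and 34.4% of the counts of this pair in the 4 libraries of E12.5 and E14, and between 49.3% and 60.5% in the 6 later libraries. The exact binomial 95% intervals were widest at E12.5 replicate 1, from 23.0% to 47.3% on 64 counts, where 22 came from Scn2a and 42 from Scn8a. This pair was chosen after its values were seen, and the share is of footprints and not of channels, since coding lengths were not used.

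Scn10a, a pain channel of sensory neurons, differed widely between replicates. It gave 8.47 and 6.36 CPM (E12.5), 7.86 and 0.919 (E14), 1.75 and 0.676 (E15.5), 1.62 and 1.39 (E17) and 2.18 and 5.75 (P0). The replicates at E14 differed by 178 counts against 29, and the P0 pair by 20 against 241. Neither the change from E12.5 to P0 (-0.71 ± 0.79) nor any step was called. Its counts weigh on the sum of alpha subunits at E12.5, and the pore-forming sum at P0 was 2.39-fold that of E12.5 with it and 3.02-fold without it, a comparison added after its values were seen.

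**Figure D2:**
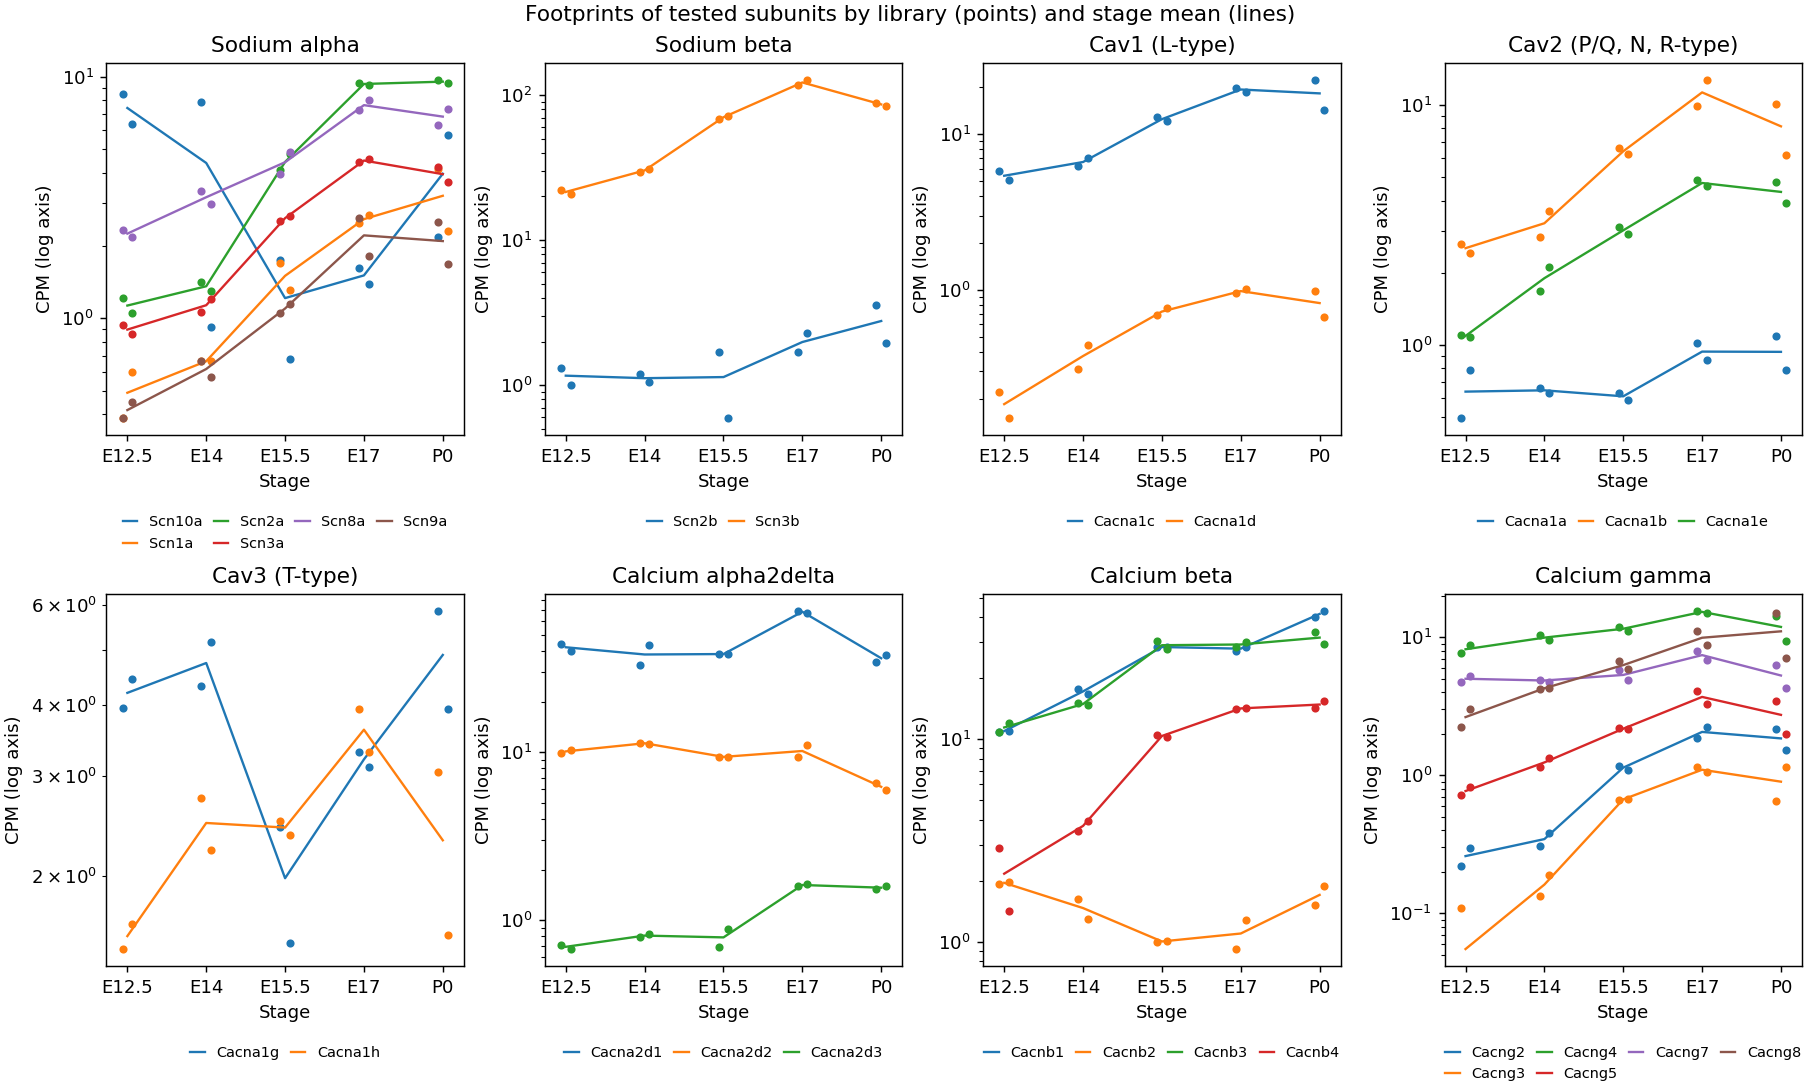
CPM on a log axis (vertical) by stage (horizontal) for 28 of the 30 tested subunits in 8 panels by role, with points for the 2 libraries of a stage and lines through stage means. Libraries with 0 counts have no point, axes differ between panels, and among pairs with counts in both libraries the replicates lie furthest apart for Scn10a at E14, with 7.86 and 0.919 CPM.

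RefSeq promoter windows on GRCm38.p6 were found for 30 of the 40 members, with 41 starts in all. The median GC content was 53.2% for the 20 starts of pore-forming and 62% for the 21 starts of auxiliary members, beside 52.4% for all 32851 promoters in the table. Searched on both strands over 250 bases before each start, the E-box CAGCTG occurred in 26.8% of member starts and 13% of all, the GC box GGGCGG in 36.6% and 32.7%, and the TATA box TATAAA in 4.88% and 12.4%. The letters TTCAGCACC and GGACAGCGC, each part of the RE1 element bound by the neuronal repressor REST, were found in 0 member starts and in 0.301% and 0.304% of all promoters. At such low shares, 0 matches in 41 starts cannot set the members apart from other genes. RE1 letters outside these windows were not searched, and 10 members had no window. A match in these windows is a description of the letters, and starts of 1 gene share its sequence neighbourhood.

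Many members sit side by side in the genome. On GRCm38.p6, with no other coding gene of RefSeq between them, Scn3a and Scn2a span chr2:65457118-65767447 and Scn1a, Scn9a and Scn7a span chr2:66270781-66784910. The 4 tested genes of these clusters were all called higher at P0, where 30.1% of all genes were. Scn1a and Scn9a had 23 and 19 counts at E12.5 and passed the footprint filter only at later stages. This comparison with all genes therefore partly reflects the filter. On chromosome 9, Scn2b and Scn4b lie together, as do Scn10a and Scn11a. Of these, Scn2b and Scn10a were not called, and Scn4b and Scn11a were not tested. Among gamma subunits, Cacng7, Cacng8 and Cacng6 lie at chr7:3332027-3435667 with only Cacng8 called higher, and Cacng1, Cacng4 and Cacng5 at chr11:107703218-107915055 with only Cacng5 called higher. Neighbouring genes of 1 family are similar in sequence, and the alignment kept reads with several matches, so values of close paralogues are uncertain to that extent.

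Sodium channel beta subunits were led in counts by Scn3b (ENSMUSG00000049281), a noncovalently bound subunit known from developing brain. It had 22.1 and 20.9 CPM (E12.5), 29.3 and 31.2 (E14), 68.7 and 72.0 (E15.5), 117 and 127 (E17) and 87.8 and 84.6 (P0). No library of a stage overlapped with those of any other, and E17 was highest. The log2 fold change from E12.5 to P0 was 2.0 ± 0.10, with an adjusted p of 1.26e-06. It was called higher from E14 to E15.5 (1.22 ± 0.09) and at the next step (0.80 ± 0.09) and lower from E17 to P0 (-0.50 ± 0.09).

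Scn2b, a subunit that forms a disulphide bond with the alpha subunit, averaged 1.16 CPM at E12.5 and 2.77 at P0 and was not called (1.00 ± 0.46, adjusted p 0.0909). Summed over the family, beta subunits stood at 5.41-fold of E12.5 at E17 and at 3.97-fold at P0, beside 2.06-fold and 2.20-fold for the alpha subunits. Most of the beta sum came from Scn3b at every stage, so that its folds are largely those of Scn3b. Without Scn10a the alpha subunits stood at 4.32-fold and 4.22-fold, so that the order of the sums at P0 depends on that gene.

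L-type (Cav1) pores open on strong depolarisation and signal to the nucleus. Cacna1c (ENSMUSG00000051331), the main L-type pore of brain and heart, gave 5.78 and 5.05 CPM (E12.5), 6.23 and 7.04 (E14), 12.8 and 12.2 (E15.5), 19.9 and 18.8 (E17) and 22.3 and 14.3 (P0). The embryonic stages were ordered without overlap, and the P0 libraries lay on either side of E17. Its change from E12.5 to P0 was 1.67 ± 0.21 (adjusted p 2.06e-04). Cacna1d, an L-type pore that opens at lower voltage, rose from 0.185 to 0.824 CPM (1.88 ± 0.47), on 8 counts at E12.5 and 37 at P0.

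P/Q-, N- and R-type (Cav2) pores trigger transmitter release. Cacna1b (ENSMUSG00000004113), the N-type pore that serves release in young synapses and neuronal migration, had 2.64 and 2.43 CPM (E12.5), 2.83 and 3.61 (E14), 6.60 and 6.25 (E15.5), 9.88 and 12.7 (E17) and 10.1 and 6.20 (P0). The highest library was from E17, and P0 replicate 2 was no higher than E15.5. The change from E12.5 to P0 was 1.53 ± 0.28 (adjusted p 0.00143). Cacna1e, the R-type pore, rose from 1.09 to 4.35 CPM (1.91 ± 0.21). Cacna1a, the P/Q-type pore of mature synapses, averaged between 0.612 and 0.940 CPM at every stage and was not called (0.32 ± 0.30, adjusted p 0.377).

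T-type (Cav3) pores open near rest and support burst firing. Neither tested member was called between E12.5 and P0. Both were called in the F test across stages, as were 63.8% of all tested genes. Cacna1g (ENSMUSG00000020866) had 3.96 and 4.45 CPM (E12.5), 4.33 and 5.17 (E14), 2.44 and 1.52 (E15.5), 3.30 and 3.12 (E17) and 5.87 and 3.94 (P0). Both E15.5 libraries lay below those of all other stages. It was called lower at the step to E15.5, with -1.26 ± 0.25 and an adjusted p of 0.00602. This call held in every alternative in which Cacna1g was tested. Cacna1h averaged 1.57 CPM at E12.5, 3.62 CPM at E17 and 2.31 CPM at P0. Its fall from E17 to P0 (-0.98 ± 0.25) was called, but without P0 replicate 2 it was -0.20, with an adjusted p of 0.581, and without E17 replicate 1 or 2 or either E15.5 library it also lost its call (adjusted p 0.0549 to 0.168).

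Of the counts of Cacna1g and Cacna1h together, Cacna1g took between 61.3% and 73.0% in the libraries of E12.5 and E14, between 39.1% and 49.4% at E15.5 and E17, and 65.9% and 71.4% at P0. The library with the fewest counts of this pair was P0 replicate 1, with an exact binomial 95% interval from 54.6% to 76.0%. As with the sodium channel pair, it was chosen after the values were seen and is given without a test.

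**Figure D3:**
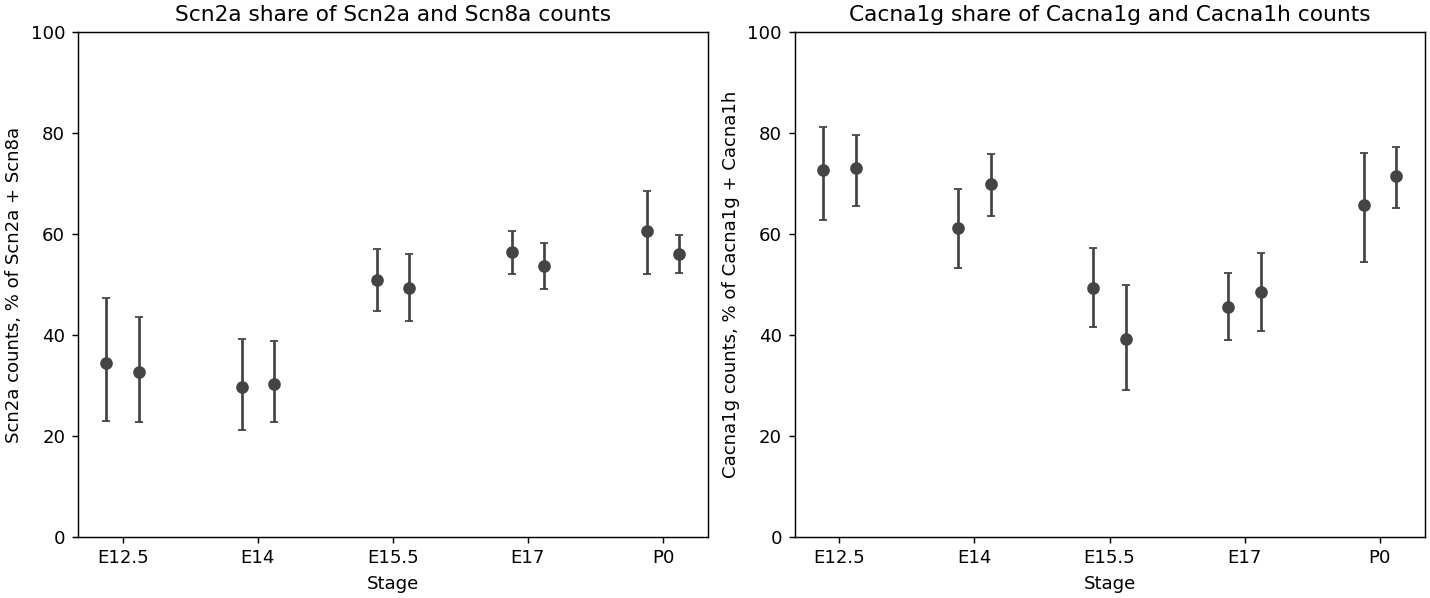
Share of Scn2a among Scn2a and Scn8a counts (left) and of Cacna1g among Cacna1g and Cacna1h counts (right), in % (vertical axes), for each of the 10 libraries by stage (horizontal axes), with exact binomial 95% intervals as bars. The Scn2a share lies at 34.4% or below in the 4 libraries of E12.5 and E14 and at 49.3% or above afterwards, and the Cacna1g share lies below 50% at E15.5 and E17 only.

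Calcium channel alpha2delta subunits, which carry the channel to the surface and of which some bind gabapentin, had the lowest ratio of summed CPM at P0 to that at E12.5 among the role groups. Cacna2d1 (ENSMUSG00000040118) had 44.1 and 40.2 CPM (E12.5), 33.1 and 43.2 (E14), 38.4 and 38.4 (E15.5), 69.6 and 67.5 (E17) and 34.5 and 38.0 (P0). The E17 libraries lay far above all others, which ranged from 33.1 to 44.1 CPM. It was called higher from E15.5 to E17 (0.84 ± 0.13, adjusted p 0.0130) and lower from E17 to P0 (-0.91 ± 0.13, adjusted p 0.00398), and it was not called between E12.5 and P0 (-0.21 ± 0.14).

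Cacna2d2 (ENSMUSG00000010066), a form prominent in cerebellum, had 9.90 and 10.3 CPM (E12.5), 11.4 and 11.3 (E14), 9.34 and 9.42 (E15.5), 9.37 and 11 (E17) and 6.53 and 5.92 (P0). The P0 libraries lay below all embryonic ones. The change was -0.73 ± 0.13 (adjusted p 0.00123) from E12.5 and -0.72 ± 0.12 (adjusted p 0.00673) from E17. Cacna2d3, a form known to act at synapses, averaged 0.694 CPM at E12.5 and 1.56 CPM at P0 (1.17 ± 0.23, called higher), with its called step from E15.5 to E17. As a sum, most of it Cacna2d1, the group stood at 1.52-fold of E12.5 at E17 and at 0.833-fold at P0.

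Calcium channel beta subunits bind the pore inside the cell and carry it to the membrane. Cacnb1 (ENSMUSG00000020882), known as the skeletal muscle form and also made in brain, had 10.9 and 11 CPM (E12.5), 17.7 and 16.7 (E14), 28.6 and 28.4 (E15.5), 27.3 and 28.6 (E17) and 39.9 and 43.1 (P0). Levels went up at 3 of the 4 steps without overlap, and E15.5 and E17 did not differ beyond the spread of their libraries. The change from E12.5 to P0 was 1.92 ± 0.10 (adjusted p 1.61e-06), with called steps of 0.65, 0.73 and 0.58. The first was lost in 11 of 19 alternatives, including every fit that left out an embryonic library. The last was lost in 2, without E17 replicate 1 and in the limma-voom fit of only the compared stages (adjusted p 0.118).

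Cacnb4 (ENSMUSG00000017412), the subunit mutated in the ataxic and epileptic lethargic mouse, had 2.92 and 1.42 CPM (E12.5), 3.53 and 3.93 (E14), 10.5 and 10.2 (E15.5), 14.1 and 14.2 (E17) and 14.2 and 15.4 (P0). The E12.5 libraries differed from each other by 53 counts against 38 at unequal depth, and without replicate 2 the change from E12.5 to P0 was 2.34 in place of 2.94 ± 0.25 (adjusted p 2.15e-05). The step from E14 to E15.5 was 1.47 ± 0.21. Cacnb3, a neuronal form, rose from 11.4 to 31.7 CPM (1.45 ± 0.12), nearly all of it by E15.5, at 29.1 CPM. Cacnb2, the main beta subunit of heart, followed another course, with 1.95 CPM at E12.5, 1.00 CPM at E15.5 and 1.70 CPM at P0, and was not called between E12.5 and P0 (-0.12 ± 0.21).

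Gamma subunits that act as TARPs bring AMPA receptors to synapses and slow their closing. Among the 6 tested, 4 were called higher at P0 than at E12.5, where 30.1% of all genes were. Of these 4, Cacng2 had 12 counts at E12.5 and 119 at E17, and Cacng3 had 2 and 64. Both passed the footprint filter only at later stages, where they were higher. The 4 of 6 therefore partly reflects this filter and cannot set gamma subunits apart from other genes. Cacng3 (ENSMUSG00000066189), a TARP of cortex, gave 0.110 and 0 CPM (E12.5), 0.133 and 0.190 (E14), 0.663 and 0.676 (E15.5), 1.14 and 1.05 (E17) and 0.653 and 1.15 (P0). These are 2 counts at E12.5 and 54 at P0, a ratio of CPM of 23.7 with a 95% counting interval from 6.26 to 201. The fitted value of 4.57 ± 0.92 (adjusted p 0.00268) depends on how a count of 0 is treated, and it was 5.82 without E12.5 replicate 1 and 2.95 without replicate 2.

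Cacng2, or stargazin, rose from 0.260 to 1.85 CPM (2.53 ± 0.43). Cacng8 went from 2.64 to 11.1 CPM (1.80 ± 0.36) and Cacng5 from 0.769 to 2.74 CPM (1.53 ± 0.34), and without P0 replicate 2 these were 2.51 and 2.18. In each of the 3 both P0 libraries exceeded both E12.5 libraries, which is no separate support for their calls. Cacng4 (ENSMUSG00000020723), a TARP known from immature brain, had 7.65 and 8.75 CPM (E12.5), 10.3 and 9.57 (E14), 11.9 and 11.2 (E15.5), 15.6 and 15.0 (E17) and 14.4 and 9.45 (P0). Each embryonic stage lay above the one before without overlap, but the P0 libraries were far apart and the change from E12.5 was not called (0.42 ± 0.19, adjusted p 0.0794). Cacng7 averaged 5.01 CPM at E12.5, 7.44 CPM at E17 and 5.29 CPM at P0 and was not called either (-0.06 ± 0.20).

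Between adjacent stages, most calls fell on the steps to E15.5 and to E17. From E12.5 to E14, Cacnb1 was the only member called (0.65 ± 0.10, adjusted p 0.0423), where 0.497% of all genes were called higher and 0.141% lower. No member was called lower by limma-voom, edgeR or DESeq2, and at an unadjusted p under 0.05 limma-voom had 6 members higher and 1 lower. Medians were nevertheless 0.35 for pore-forming and 0.31 for auxiliary subunits, against -0.0015 for all genes. The Cacnb1 call was lost without any 1 of the 8 embryonic libraries, with adjusted p between 0.115 and 0.269.

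From E14 to E15.5, 14 members were called higher and 2 lower, beside 16.5% and 19.6% of all genes. Pore-forming subunits contributed 6 of the higher calls (Scn1a, Scn2a, Scn3a, Cacna1b, Cacna1c, Cacna1e) and both lower ones, Cacna1g among them, with a class median of 0.74. Auxiliary subunits contributed 8, among them Scn3b, Cacnb1, Cacnb3, Cacnb4, Cacng2, Cacng3 and Cacng5, with a median of 0.64. In this step 7 of the 16 calls held in every alternative in which the gene was tested, those of Scn2a, Scn3a, Scn3b, Cacnb1, Cacnb3, Cacnb4 and Cacna1g. The 14 higher calls were 7 without E14 replicate 1 or E15.5 replicate 1, 8 without E14 replicate 2 or E15.5 replicate 2, and 9 with DESeq2.

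From E15.5 to E17, 10 members were called higher, 5 in each class, beside 5.61% of all genes. They were Scn2a, Scn3a, Scn8a, Scn9a and Cacna1e among pores and, among others, Scn3b, Cacna2d1, Cacna2d3 and Cacng2 among auxiliary subunits. The class medians were 0.67 and 0.68. No member was called lower by limma-voom, edgeR or DESeq2, beside 3.43% of all genes, and at an unadjusted p under 0.05 there were 20 members higher and 0 lower. None of the 10 calls held without E15.5 replicate 1 or 2 or E17 replicate 1 or 2, where at most 18 genes of the whole table were called. Without P0 replicate 1 or 2, 18 members were called higher, beside 1623 and 1634 of all genes in place of 757.

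From E17 to P0, 3 of the 30 members were called higher, all auxiliary and including Cacnb1 and Cacnb2, beside 9.46% of all genes, and 5 were called lower, beside 11.1%. As shares of the 30 these are 10% and 16.7%, and none of the 8 calls held in every alternative. The lower ones were the auxiliary Scn3b, Cacna2d1, Cacna2d2 and Cacng7 and the pore-forming Cacna1h. Medians were -0.18 for pore-forming and -0.08 for auxiliary subunits. In a fit of these 2 stages alone 0 members were called in either direction, as were 0 of all 12995 genes in that fit. The higher calls were 0 without E17 replicate 1 and 1 without E17 replicate 2, with 2 lower calls in both cases. Without P0 replicate 1 there were 9 lower calls and without P0 replicate 2 there were 5 higher and 3 lower.

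**Figure D4:**
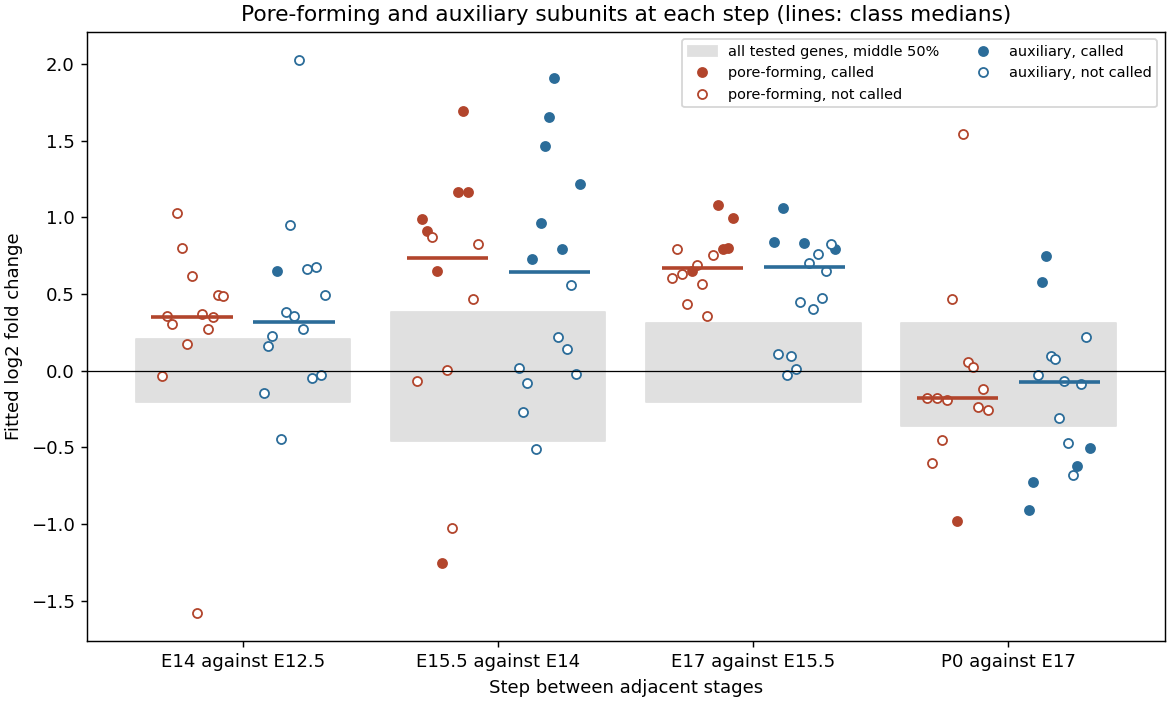
Fitted log2 fold change (vertical axis) of 28 of the 30 tested subunits at the 4 steps between adjacent stages (horizontal axis), pore-forming in red and auxiliary in blue, filled where called, with medians of each whole class as lines and the middle 50% of all tested genes in grey. Both class medians lie above 0.6 at the 2 middle steps and below 0 at the last.

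Compared as sums, pore-forming subunits took 29.4 CPM (E12.5), 32 (E14), 43.4 (E15.5), 72.6 (E17) and 70.3 (P0). The SD between replicates was at most 3.41 CPM before birth and 10.8 CPM at P0. Auxiliary subunits took 120, 140, 217, 318 and 260 CPM. Pore-forming subunits made up between 16.5% and 22.4% of the members' counts in each library, lowest at E15.5 replicate 2 and highest at P0 replicate 1. Without Scn10a both E12.5 libraries were lowest, below the 16.3% of E15.5 replicate 2, and P0 replicate 1 was highest again, at 21.9%.

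Ratios of summed levels spanned a wider range over the role groups than over the classes. From E12.5 to P0, summed CPM of sodium channel beta subunits was 3.97-fold, calcium channel beta subunits 3.39-fold, Cav1 pores 3.38-fold and Cav2 pores 3.15-fold, followed by sodium alpha subunits at 2.20-fold and gamma subunits at 1.99-fold. Without Scn10a the alpha subunits stood at 4.22-fold, which puts them first in this order. Cav3 pores stood at 1.32-fold and alpha2delta subunits at 0.833-fold. From E17 to P0, calcium channel beta subunits stood at 1.24-fold while alpha2delta subunits stood at 0.549-fold. These ratios are of means over 2 libraries and were not tested as sums. Some are largely those of a single gene. Scn3b gave most of the sodium channel beta sum. At P0, Cacna1c gave 18.3 of the 19.4 CPM of Cav1 pores and Cacna2d1 36.2 of the 44.1 CPM of alpha2delta subunits.

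Proteins that bind or anchor these channels were followed by lists. From E12.5 to P0, 30.1% of all tested genes were called higher and 32% lower. At the axon initial segment, 4 of 5 genes were called higher from E12.5 to P0 and none lower, among them the scaffold ankyrins Ank3 (1.94 ± 0.09, from 57.3 to 220 CPM) and Ank2 (1.95 ± 0.10). The 4 FGF homologous factors, which bind the tail of sodium channel alpha subunits, were all called higher, including Fgf13 (1.12 ± 0.24) and Fgf12 (3.81 ± 0.52). Of the presynaptic proteins that tether Cav2 channels, 6 of 6 were called higher, including Cask (0.61 ± 0.12) and Rims1 (4.77 ± 0.33). The 3 tested genes of the sodium leak channel complex were called higher, including Fam155a (2.73 ± 0.22) and Unc79 (1.45 ± 0.16).

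Lists of regulators were also followed. The RGK proteins, which inhibit calcium channels through the beta subunit, had 1 of 2 tested genes called lower, beside 32% of all genes. This was Gem (-1.11 ± 0.27), and Rem2 was not called. The tested Stac adaptor, Stac, was not called (1.05 ± 0.49). Among Nedd4l and calcium sensors, 2 of 5 tested genes were called higher, where 30.1% of all genes were, including Calm3 (0.80 ± 0.24), and Calm2 was not called.

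Markers of cell types moved over the same stages, where 30.1% of all genes were called higher and 32% lower from E12.5 to P0. All 8 neuronal markers were called higher from E12.5 to P0. Their summed level lay between 2205 and 2259 CPM (E12.5), 2984 and 3037 (E14), 6356 and 6609 (E15.5), 6663 and 6948 (E17), and 7879 and 8916 (P0). From E14 to E15.5 all 8 were called higher, beside 16.5% of all genes, and the median log2 fold change of the list was 1.18. From E15.5 to E17, 2 of the 8 were called higher, beside 5.61% of all genes, and the median of the list was 0.11. Of the markers of ganglionic eminence and interneurons 7 of 8 were called higher, from 29.1 to 30.6 CPM at E12.5, from 160 to 170 CPM at E17 and from 190 to 221 CPM at P0. Neural progenitor markers were called lower in 7 of 8 cases and higher in 1. The summed level of progenitor markers was 2158 to 2205 CPM at E12.5, 2347 to 2472 CPM at E17 and 1410 to 1951 CPM at P0. No neuronal or progenitor marker was at 0 at any stage. In bulk tissue more cells of a type and more RNA per cell cannot be told apart, and the part of these markers in the channel values was not tested.

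Some lists of markers of other cell types were called lower over the same stages. From E12.5 to P0, 30.1% of all genes were called higher and 32% lower, and 19.6% were called lower from E14 to E15.5. All 6 markers of meningeal fibroblasts were called lower both from E12.5 to P0 and from E14 to E15.5. Their summed level lay between 100 and 104 CPM (E12.5), 62.9 and 73.1 (E14), 3.55 and 3.83 (E15.5), 5.71 and 8.80 (E17), and 3.46 and 4.68 (P0). Endothelial markers were called lower in 6 of 6 cases at both comparisons, from 30.1 to 31.8 CPM at E12.5 and from 7.26 to 8.44 CPM at E15.5. Choroid plexus markers, with 5 of 5 called lower at both, summed to between 1121 and 1127 CPM at E14 and between 11.1 and 13.5 CPM at E15.5, and Kcnj13 was at 0 in both P0 libraries. Of the remaining lists, from E12.5 to P0, astrocyte markers had 5 higher and 1 lower of 6, oligodendrocyte lineage markers 3 higher of 4, microglial markers 2 lower of 6, mural and smooth muscle markers 1 higher and 2 lower of 5, and skeletal muscle markers 1 higher of 2. The 2 lower of 6 microglial markers were near the share of all genes called lower. The part of these marker lists in the values of Scn10a or Cacna1g was not tested.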

How the data were processed

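Footprint counts of 10 libraries were analysed, in 5 stages given by the labels. Per the methods of the study, lysates were digested with RNase T1 and RNase A, footprints of 80S monosomes were sequenced, duplicates were collapsed, reads of structural RNAs were removed and those left were aligned with STAR (2.7.0 in the submitters' processing notes). The deposited table holds whole-number counts per gene that the authors did not scale to a common depth; the methods name an alignment that kept reads with several matches, DeepShape-prime for abundances of isoforms and tximport for gene counts corrected for length, without saying whether this table is that output. Totals ranged from 7544404 to 36129988 counts. Symbols were matched for 22274 of 22373 identifiers.

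Genes with at least 32 footprints in a stage (13484) were fitted with limma-voom (limma 3.58.1, edgeR 4.0.16 for TMM, R 4.3.3) with 1 coefficient per stage over all 10 libraries, two-sided, with Benjamini-Hochberg adjustment over all tested genes. A call needed an adjusted p below 0.05 and a change of 25% or more (higher level over lower), and the F test across stages had no fold threshold. The fit was tested on simulated data. CPM used TMM-scaled library sizes. Alternatives were edgeR, DESeq2 1.42.0, other scalings and filters, sample quality weights, a replicate block, a fit of only the compared stages, and leaving out each library. Replicates differed beyond sampling noise and are pools, so p-values measure the spread between pools. Replicate numbers were not taken to pair libraries, since the deviations of same-numbered libraries correlated between -0.64 and 0.43. Every library is printed for the member with the highest mean CPM of each role group, for the 4 largest called rises and all called falls from E12.5 to P0, and for members with a mean of at least 100 counts called in a step with at least 2-fold change; some items that these rules name are not reported here, and Scn10a was added after its values were seen. Members, gene lists and these rules were chosen with earlier results of these data known. Promoter sequences came from RefSeq (GRCm38.p6).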

Additional observations from a re-analysis of the deposited data

How the results depend on the processing

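Of the 21 calls from E12.5 to P0, 18 held throughout, as did 7 of the 16 from E14 to E15.5 and none of those at the other 3 steps. A stricter filter (mean of 100 counts, which leaves 13 members) gave 7 higher and 0 lower between E14 and E15.5, 4 higher from E15.5 to E17, 1 higher and 3 lower from E17 to P0, 9 higher and 1 lower from E12.5 to P0 and 12 in the F test, with auxiliary medians of 0.48 from E15.5 to E17 and -0.45 from E17 to P0. DESeq2 gave 2 higher from E12.5 to E14, 9 higher and 1 lower between E14 and E15.5, 4 higher from E15.5 to E17, and 1 higher and 3 lower from E17 to P0. edgeR gave 6 higher from E15.5 to E17 and 3 lower from E17 to P0. Sample quality weights gave 2 higher from E12.5 to E14, 22 higher from E15.5 to E17, 1 higher and 1 lower from E17 to P0, and 1 lower from E12.5 to P0. The fit of only 2 stages gave 0 higher from E12.5 to E14, 1 lower from E14 to E15.5, 20 higher from E15.5 to E17, and 0 higher and 0 lower from E17 to P0. No filter gave 0 higher from E12.5 to E14, 6 higher from E15.5 to E17 and an auxiliary median of 0.40 from E14 to E15.5. Calls over all genes moved with the setting as well. From E15.5 to E17 the main fit called 757 of all genes higher, DESeq2 608, edgeR 601 and no filter 501. Sample quality weights called 2174 higher at that step, and the fit of only 2 stages 1878. From E12.5 to E14 the main fit called 67 higher, DESeq2 293, sample quality weights 402 and the fit of only 2 stages 7. Apart from the smaller number of members left by the stricter filter, the cause was not tested.

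Scaling by total counts only gave medians of 1.03 (pore-forming) and 0.94 (auxiliary) between E14 and E15.5, 2.18 and 2.01 between E12.5 and P0, with 1 lower call, and an auxiliary median of 0.03 in place of -0.08 from E17 to P0. It moved the median of all genes by up to 0.51, and it turned Cacna2d1 (0.32), Cacnb2 (0.40) and Cacng7 (0.46) from E12.5 to P0. None of the 3 was called. Uncalled Cacng7 also turned with edgeR (0.021), DESeq2 (0.052), sample quality weights (0.024), without E12.5 replicate 2 (0.0092) and without P0 replicate 2 (0.37; its range without 1 library was -0.23 to 0.37), as did Cacna1g without E12.5 replicate 1 (-0.0018) or P0 replicate 1 (-0.10; range -0.10 to 0.51) and Cacna1h without P0 replicate 1 (-0.0087; range -0.0087 to 0.99).

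Leaving out each library gave 0 to 3 higher calls from E12.5 to E14, 7 to 18 higher and 1 to 2 lower from E14 to E15.5, 0 to 18 higher from E15.5 to E17, 0 to 5 higher and 2 to 9 lower from E17 to P0, and 18 to 22 higher and 1 to 2 lower from E12.5 to P0. Auxiliary medians ranged from 0.24 to 0.36, 0.59 to 0.69, 0.49 to 0.72, -0.22 to 0.01 and 1.35 to 1.80 in the same order of comparisons, and pore-forming medians from -0.27 to 0.10 from E17 to P0 and 1.56 to 2.06 from E12.5 to P0. The lone sample left at a stage is assumed to vary like the others. The fit with a replicate block, whose numbers do not pair the libraries, gave 0 higher from E12.5 to E14, 13 higher and 2 lower, 8 higher, 2 higher and 4 lower, and 19 higher and 2 lower, with 26 in the F test. Few counts in many members and 2 libraries per stage limit what a single step can show.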
